A study of Mus musculus with 3 samples.

Results

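The regions described here are genomic loci at which Tet2 CLIP gave a peak in each of 3 replicate libraries and at which no peak reached 20 height units. Peaks of the libraries were merged where they overlapped by 1 nt or more, which gave 5969 loci. Of these, 585 loci (9.80%) met both conditions. They were chosen by presence in all libraries and by peak height, and they are called shared loci under 20 units below. A height unit is the fixed step of which every deposited height of a library is a whole multiple, and 1 unit was 0.00520%, 0.00547% and 0.00648% of the summed height in replicates 1, 2 and 3. The number of loci and their heights are therefore given as a description, and tests were made only of position, which the rule did not use. All 3 libraries belong to 1 group: mast cells grown from bone marrow of C57BL/6 mice with interleukin-3 (10 ng/ml) and stem cell factor (5 ng/ml), over 97.5% of them positive for FcεRI and c-Kit, cross-linked with ultraviolet light at 400 and then 200 mJ per square centimetre, and pulled down with an antibody to endogenous Tet2. The labels name no genotype other than the strain, no treatment other than cross-linking and no age, and they do not say whether the replicates came from separate mice. Input and control-antibody libraries were not analysed here.

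Tet2 is a dioxygenase that oxidises 5-methylcytosine and is a frequent target of mutation in blood cancers. It lacks the CXXC DNA-binding domain of its relatives Tet1 and Tet3 and relies in part on partner proteins to reach its targets. In CLIP, ultraviolet light joins a protein to RNA that it touches, the RNA is trimmed with nuclease, and the fragments that stay with the protein are sequenced. A peak is a pile of such fragments, and its height depends on how abundant the RNA is as well as on how often it was captured.

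The word moderate fits only part of these loci. Every locus held 1 peak per library, except 1 that held a second peak in replicate 2, so the 585 loci took in 1756 of the 8196 peaks. They made up 19.4%, 20.9% and 24.6% of the peaks and 20.9%, 21.6% and 23.0% of the summed height in replicates 1, 2 and 3 (21.8% ± 1.04 of the height, SD, n = 3). Heights ran from 3 to 18 units in replicate 1 and from 3 to 19 units in replicates 2 and 3, with medians of 6, 6 and 5 units. The median of the mean height per locus was 5.67 units, against a median of 4 units for all peaks of each library. At 235 of these loci the lowest peak stood at 3 units, and at 21 loci all 3 peaks did. Every peak reached at least 5 units at 233 loci (39.8%) and at least 10 units at 49 loci (8.38%).

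**Figure D1:**
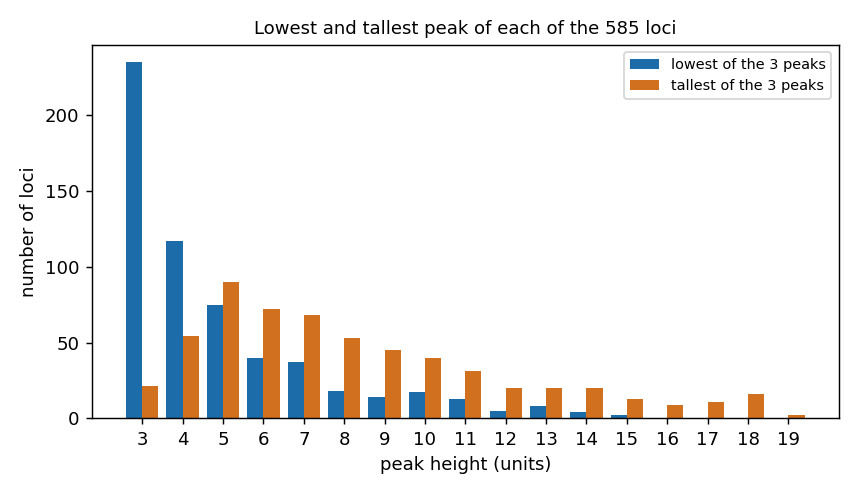
Number of shared loci under 20 units by the height of their lowest and of their tallest peak among the 3 libraries (x axis in height units). The lowest peak is at 3 units for 235 loci and at 4 units for 117, while the tallest peak is most often at 5 units (90 loci).

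Some of these loci lie at annotated transcription starts, for which the RefSeq table of GRCm38.p6 gives sequence from 250 nt before to 50 nt after each start. The runs below show the sequence at the 5 tallest of those whose commonly covered bases the table holds, named by the gene of the start, and at Cacnb4 and Pim1, where peaks of the 3 libraries share 10 and 41 nt, and they make visible the G and C content reported further on. Each is 30 bases on the strand of that gene, 5′ to 3′, placed around the bases that the peaks of all 3 libraries cover, which are in capitals. The strand of the captured RNA is not in the table of peaks.
Kctd20: CGCGGTGGCCGGAGCTTGGAGGTGGCTTCG
Mrfap1: cttcgtggacgcgagCgcgcccgccccttt
4930581F22Rik: cgcagctccgatccGttaggcgccccgact
Glb1l: tcgcacccgtCAGGcatggggtggcggcgc
Dram1: ctgggcctgTCCCGGCCGTCCCGGAGtctc
Cacnb4: acgttttgttAATGGATGTGgtgggtgctc
Pim1: CGGCGGAGGAGGCTGGAGGGGAGTCGGCAG
The runs lie at chr17:28952504-28952533 (Kctd20, + strand), chr5:36796818-36796847 (Mrfap1, - strand), chr9:35116737-35116766 (4930581F22Rik, + strand) and chr1:75210976-75211005 (Glb1l, - strand). Those of Dram1 (chr10:88357026-88357055, - strand), Cacnb4 (chr2:52676011-52676040, - strand) and Pim1 (chr17:29490805-29490834, + strand) follow. The run of Pim1, a kinase induced by cytokines that signal through STAT5, begins 20 nt after an annotated start and is covered by peaks of 11, 7 and 10 units. The 10 covered bases of Cacnb4, a calcium channel subunit, were the same in each library (12, 9 and 9 units). Ahead of Mrfap1, outside its span, a single base was common to peaks of 6, 2 and 1 nt (16, 13 and 13 units). The run named Glb1l lies before the start of that gene but inside the span of Stk16, a kinase gene on the other strand, 186 nt after a start of it (12, 12 and 10 units). The run of 4930581F22Rik likewise lies in the span of St3gal4 too. The locus of Kctd20 lies before 1 annotated start of that gene and 78 nt after another. Of the 7 runs, 6 hold 21 to 23 G or C bases in 30, and that of Cacnb4 holds 14.

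A further pair of loci abutted microRNAs, short RNAs that silence mRNAs and are cut from a hairpin by Drosha and Dicer. Both loci lie just 5′ of the first mature microRNA of a hairpin. Of the 585 loci, 2 overlapped a hairpin, against 4 of 904 loci found in 2 libraries and 6 of 4404 found in 1 library. Of the 76 shared loci left out for a taller peak, 0 overlapped a hairpin, though the mature miR-6236 was overlapped by such a locus. Differences between these shares were not tested. The mature sequences are shown with the seed, bases 2 to 8, in capitals.
mmu-miR-193b-5p: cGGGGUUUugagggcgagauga
mmu-miR-24-1-5p: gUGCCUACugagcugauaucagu
The first 30 bases of the hairpins are shown with the part under a peak of any library in capitals. At Mir24-1 only the peak of replicate 2 covered all of that part.
Mir193b: GGCCCAGAAUcgggguuuugagggcgagau
Mir24-1: CUCCGgugccuacugagcugauaucaguuc
At Mir193b (hairpin at chromosome 16, 13449523 to 13449601, + strand), the peak ran from 13449445 to 13449532 in each library, with heights of 3, 3 and 4 units. Its last base was the one before the first base of miR-193b-5p (13449533) in all 3 libraries. At Mir24-1 (hairpin at chromosome 13, 63301208 to 63301275, + strand, inside the span of Aopep), the peaks ended at 63301209, 63301212 and 63301209, and miR-24-1-5p begins at 63301213. Heights there were 8, 10 and 7 units. The peak of replicate 2 thus ended right before the mature sequence and those of replicates 1 and 3 ended 3 nt short of it. No base of either mature sequence lay in a peak. Mir3074-1, on the opposite strand of Mir24-1, overlaps the same locus by 14 nt, and without strand the hairpins cannot be told apart.

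Of the 15 tallest loci, 13 lay in gene spans. The last places were tied: 5 loci had a summed height of 43 units, and Lrrc45 and a locus near Sp1 were taken from these, while loci of Gnas and Gata2 and 1 on chromosome 4, described further on, were not. Sspn, which encodes sarcospan of the dystrophin complex (chromosome 6, 145932910 to 145933009), had peaks of 16, 15 and 18 units. A 7 nt locus shared by the spans of Tmed8, a protein of the p24 type, and Gm40496 on chromosome 12 had 18, 17 and 14 units. Both means came to 16.3 units, with an SD of 1.53 at Sspn and 2.08 at Tmed8 (n = 3). Map3k6, a kinase of the MAP kinase cascade, held a pair of loci among the 15, with 15, 17 and 16 units at 133251408 to 133251447 of chromosome 4 and 14, 16 and 14 units at 133251611 to 133251636. Rnf167, a RING ubiquitin ligase, had 17, 16 and 14 units, and Kctd20 had 13, 17 and 17. Libraries differed more at Col6a6, a collagen VI chain, with 12, 16 and 19 units, and at Csf2rb2, the mouse interleukin-3 receptor beta chain, with 16, 19 and 11. At Col6a6 replicate 3 was highest and at Csf2rb2 it was lowest.

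Other loci of the 15 lay in imprinted genes, among others. Peg3, an imprinted zinc finger gene, had 16, 18 and 12 units at chromosome 7, 6709119 to 6709156. Plagl1, an imprinted zinc finger transcription factor whose span overlaps Hymai here, had 15, 13 and 16 units 107 nt after an annotated start. Eif4g1, the scaffold of the cap-binding complex, had 18, 13 and 13 units. Nlrc5, the activator of MHC class I genes, had 16, 15 and 13 units, and Lrrc45, a centrosome protein, had 16, 17 and 10. The other two loci lay outside gene spans: 1 on chromosome 2, 18 nt from the span of Tsc1, had 17, 18 and 13 units, and 1 on chromosome 15, 14934 nt from Sp1, had 15, 14 and 14.

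**Figure D2:**
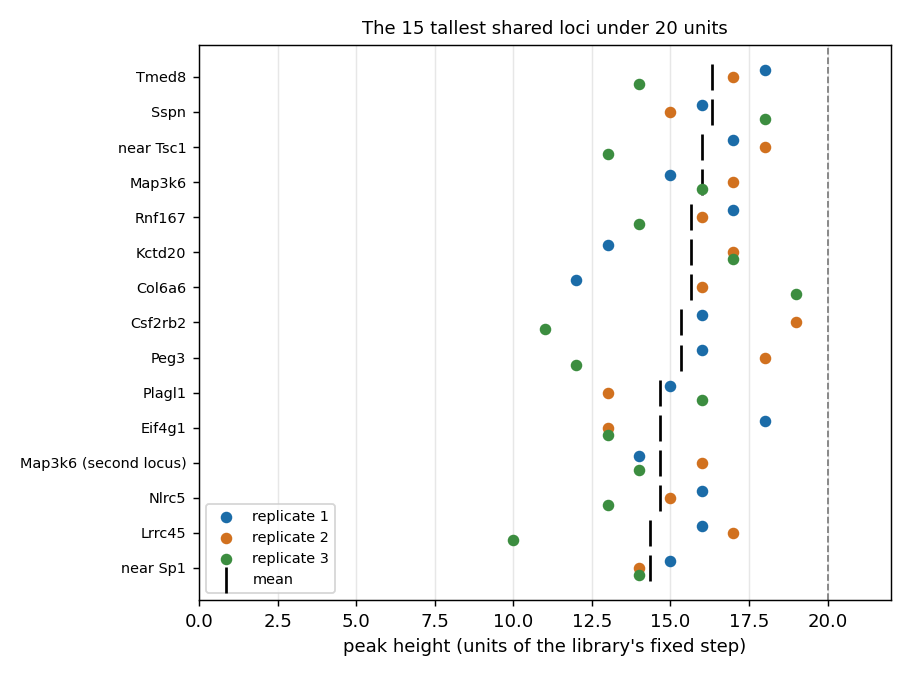
Peak height in each replicate (coloured points) and the mean of the 3 (black bar) at the 15 tallest shared loci under 20 units, on a linear axis in height units, with the ceiling of 20 units dashed. Heights at Sp1's neighbour locus lie within 1 unit of each other, while those at Csf2rb2 run from 11 to 19 units.

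The ceiling cut through a continuous range. Just inside it, the highest single peak was 19 units at Col6a6 and at Csf2rb2, and 16 loci, Tmed8 and Sspn among them, had a highest peak of 18 units. Just outside it, each with a highest peak of 20 units, lay loci of Col6a2 (11, 20 and 6 units), Chmp4b (10, 20 and 11), Ccn3 (14, 20 and 9) and Lemd2 (20, 13 and 16). The mean of the Lemd2 locus, 16.3 units, equals that of the tallest loci kept. As a share of a library's summed height, 20 units stood for 0.104%, 0.109% and 0.130% in replicates 1, 2 and 3, so the ceiling was most lenient in replicate 3.

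Heights at a given locus varied between libraries. The ratio of the highest to the lowest of the 3 heights had a median of 1.67 and reached 4.67, and it was 2 or more at 195 loci (33.3%). Among the 153 loci with a mean of at least 8 units, the most uneven were in Col5a1, a collagen V chain (14, 3 and 11 units), Msl2, a subunit of a histone acetyltransferase complex (4, 18 and 12), and the transcription factor Sp3 (8, 13 and 3). The most even were the locus near Sp1, 1 in the spans of St3gal4 and 4930581F22Rik (14, 13 and 13 units) and 1 in Macf1, a linker of actin and microtubules (10, 10 and 9). Across the 585 loci the log2 heights of replicates 1 and 2, 1 and 3, and 2 and 3 had Pearson correlations of 0.621, 0.535 and 0.633 and Spearman correlations of 0.593, 0.495 and 0.593. The points are loci chosen for presence in all libraries, and the ceiling narrows their range. In units, replicate 3 alone was lowest at 179 loci and replicate 1 alone at 122. As shares of the library's summed height the order turned: replicate 1 was lowest at 256 loci and replicate 3 at 154.

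Peaks of the 3 libraries often shared an edge. Start and end were the same in all libraries at 38 loci (6.50%), the start alone or the end alone or both at 215 (36.8%). The 3 midpoints lay within 10 nt of each other at 250 loci (42.7%) and within 20 nt at 395 (67.5%). A median of 24 nt was common to all 3 peaks, out of a median locus width of 66 nt, and at 56 loci (9.57%) no base was common, because 1 peak bridged the other two. The tallest loci with the same edges throughout were that of Tmed8 (7 nt), then Nipsnap2 (24 nt; 12, 8 and 11 units), Cacnb4 (10 nt), Col3a1 (14 nt; 14, 6 and 8 units) and Dna2, a nuclease and helicase of DNA replication (48 nt; 10, 7 and 8 units). Widths of loci ran from 4 nt, at Gse1 and at a locus on chromosome 8 outside gene spans, to 159 nt, at Msl2, Hdc and Iqsec3. Another 5 nt locus lay in H2az1, which encodes the histone variant H2A.Z (10, 11 and 5 units).

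Taller peaks were narrower here as well. Median width was 54 nt for peaks of 3 or 4 units, 44 nt at 5 to 9 units and 31 nt at 10 to 19 units. Other peaks of the same heights had medians of 63, 50 and 20 nt, so the order of the classes was not the same at every height. Peaks at the shared loci held 12.1% of all peaks of 3 or 4 units, 36.8% of those at 5 to 9 units and 61.3% of those at 10 to 19 units. The rule bears on both measures, since wide peaks overlap more readily and heights were capped, so neither was tested.

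Most loci lay in protein-coding genes, as did peaks in general. Protein-coding spans held 509 of the 585 loci (87.0%), against 87.6% of all 5969 loci. Long non-coding RNA genes held 18 (3.08%, against 2.70% of all loci) and small structural RNA genes 4 (0.684%, against 0.553%). Other annotated loci such as pseudogenes held 3 (0.513%, against 0.838%), and 51 (8.72%, against 8.29%) lay outside gene spans. These shares were near those of all loci. Per library, 87.1% ± 0.106 (SD, n = 3) of these peaks lay in protein-coding spans against 86.7% ± 0.257 of the other peaks, a difference of 0.385 percentage points, and its sign turned under 5 of 10 alternative settings. Of the loci, 41 (7.01%, against 6.89% of all loci) lay in more than 1 span and cannot be credited to a single gene.

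Within longer genes the loci gathered at the 5′ end. Start and strand came from the RefSeq start table, for protein-coding spans of at least 10000 nt that were the only protein-coding span at the locus. The shares in the last 5% and in both ends were planned measures, while the share in the first 5% was not planned. The first 5% of the span held 123 of 338 loci (36.4%, exact 95% interval 31.3 to 41.8), against 28.0% of all 3452 loci in such genes. The last 5% held 17 (5.03%, interval 2.96 to 7.93), against 8.34% of all. Loci found in 1 library had 25.5% in the first and 9.05% in the last part, loci found in 2 libraries had 35.9% and 6.97%, and the shared loci with a peak of 20 units or more had 5 and 2 of 28 (17.9% and 7.14%). Both ends together, whatever the strand, held 178 of 407 loci (43.7%), against 36.5% of all 4203. Intervals cover counting error only.

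The same order was seen in each library. Among peaks of replicates 1, 2 and 3, the first 5% held 36.4%, 36.3% and 36.4% of those at shared loci under 20 units and 27.6%, 27.7% and 29.4% of the others, a mean difference of 8.12 ± 0.973 percentage points (SD, n = 3). For the last 5% the shares were 5.03%, 5.01% and 5.03% against 8.51%, 8.99% and 7.67%, a mean difference of -3.36 ± 0.673. For both ends together the mean difference was 6.98 ± 1.05. Each difference had the same sign in 3 of 3 libraries. The exact two-sided sign-flip permutation test over the 3 libraries gave p = 0.25 each time, also for the share in protein-coding spans, and this is the smallest p that 3 libraries allow. The same loci enter all 3 libraries, so the 3 differences are not independent. RNA levels and exons were not analysed here, so a difference in position cannot be told apart from one in the abundance of the captured RNA.

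**Figure D3:**
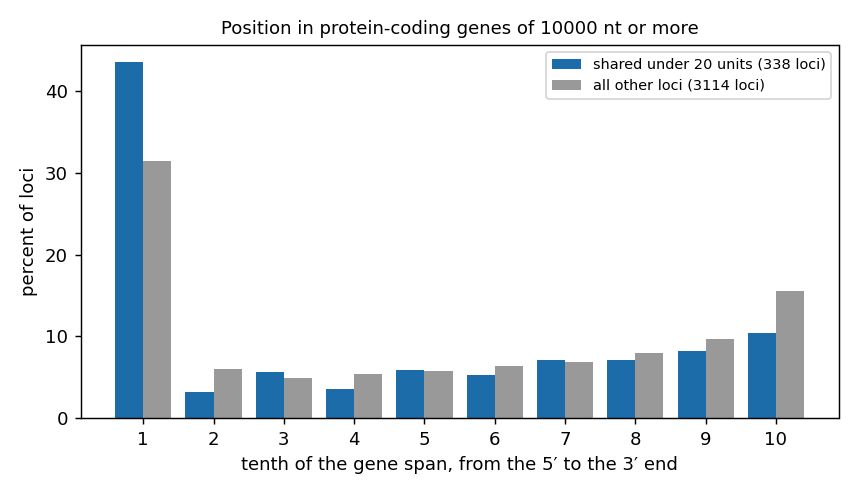
Percent of loci in 10 equal parts of the gene span, from the 5′ to the 3′ end, in protein-coding genes of 10000 nt or more, for the 338 shared loci under 20 units (blue) and 3114 other loci (grey). The first part holds 43.5% and 31.5%, and the last 10.4% and 15.5%.

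Distance from annotated starts, taken over spans of any length, was also shorter at these loci than at others. Of 419 loci in a single protein-coding span of known strand, 176 (42.0%) had their midpoint within 500 nt of an annotated start of that gene, against 29.5% of 3755 other loci. Only 14 of the 176 lay before the start, and their signed distance had a median of 168.75 nt downstream, with quartiles of 95.1 and 297.5 nt. The side was largely fixed by this choice of loci, since a locus before the outermost start lies outside the span and was not counted. Among the 58 loci that overlapped a start window, 37 had their midpoint before the start. Those windows reach farther before a start than after it, so neither count decides on which side loci lie. The median distance over all 419 was 873 nt, and 4431 nt for the other loci. Among tall loci near starts, Kctd20 lay 78 nt after a start, Nup93, a nuclear pore protein, 324 nt after (18, 16 and 8 units), and Gabbr1, a GABA-B receptor subunit, 289 nt after (10, 17 and 14 units). Ndst2, which sulphates heparin in mast cell granules, had a locus 96.5 nt after a start (14, 10 and 15 units), and Snrnp70, the U1 splicing particle protein, had 1 at 109.5 nt (11, 10 and 9 units).

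**Figure D4:**
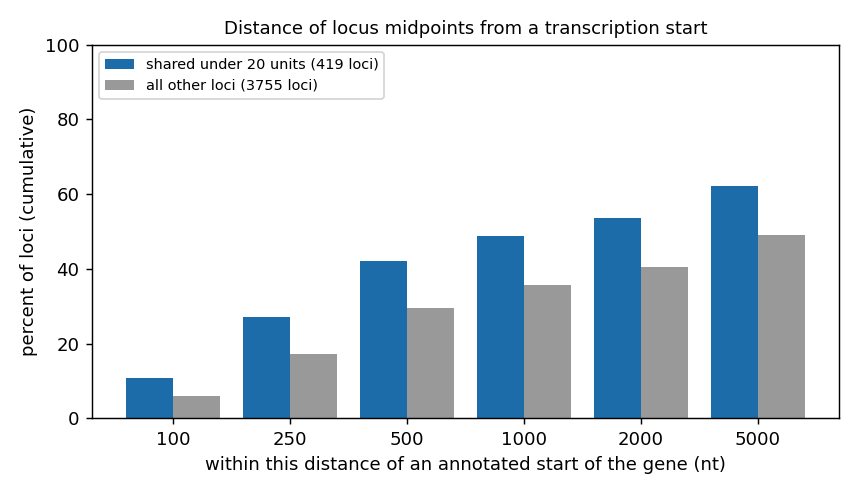
Cumulative percent of loci whose midpoint lies within 100 to 5000 nt of an annotated start of their gene, for 419 shared loci under 20 units (blue) and 3755 other loci (grey). At 500 nt the shares are 42.0% and 29.5%, and at 5000 nt they are 62.1% and 49.0%.

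Sequence could be read at 58 of the 585 loci (9.91%), those that overlapped a start window, against 7.24% of all loci. Loci found in 2 libraries had a close share, 9.40% (85 of 904), and loci found in 1 library had 6.56%. None of the 76 shared loci with a peak of 20 units or more overlapped a window. At 36 of the 58, a run of 30 bases around the midpoint lay whole within the window. These runs, placed on the locus midpoint and so not those printed above, held 71.5% ± 10.1 G and C (SD over 36 runs). All 36 contained the dinucleotide CG, which reads the same on both strands, though at Uros the run placed on the commonly covered bases had 0. At the same offsets in all 32851 windows the mean was 53.6% and the share with CG was 52.2%. Other loci in start windows held 72.4% ± 9.97 G and C and CG in 228 of 238 runs (95.8%), and the difference between these and the shared loci was not tested. A CG in these letters does not show methylation.

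Of 21896 protein-coding genes, 436 (1.99%) held a shared locus under 20 units, which is 14.1% of the 3082 that held any locus. Most had 1 locus (363 genes), while 61 had 2, 10 had 3 and 1 had 4. Just 11 of the 436 also held a shared locus with a peak of 20 units or more, and at 218 every locus of the gene, in any library, was of this kind. Gata2, which encodes a regulator of blood progenitors and mast cells, held the most, with 5 of its 21 loci. Its tallest, at chromosome 6, 88200667 to 88200713, had 18, 10 and 15 units, and the next, at 88199519 to 88199552, had 6, 11 and 12. Near the start of the gene, where its span overlaps Gm38708, stood loci of 6, 10 and 9 and of 6, 8 and 6 units, and near the 3′ end 1 of 4, 5 and 7 units. Only the first of the 5 loci had replicate 1 highest.

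Other genes with several loci came from different pathways. Col5a1 held 4 loci, of 9.33, 7.33, 5.33 and 4.00 units on average, all beyond the middle of its span. Csf2rb2 held 3, at 49.1%, 56.8% and 93.2% of its span from the start. Csf2rb, the common beta chain, also held 3, with means of 10.3, 7.00 and 6.67 units, and how reads were shared between these near-identical neighbours was not analysed here. Eln (elastin), Por (the electron donor of cytochrome P450 enzymes), Serbp1 (an mRNA-binding protein), Eef2 (translation elongation factor 2), Gse1 and Snrnp70 each held 3 as well. Eef2 reached 10, 11 and 14 units at 91.4% of its span, and Serbp1 reached 13, 6 and 9 units at 1.74% of its span.

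Some neighbouring loci of a gene carried equal or nearly equal heights. Another shared locus under 20 units lay within 500 nt at 52 loci (8.89%) and within 1000 nt at 70 (12.0%). In 36 pairs of loci within 1000 nt of each other in 1 gene, heights differed by at most 1 unit in all 3 libraries in 14 pairs (38.9%). That held for 8 of 72 pairs farther apart in 1 gene (11.1%) and for 6.33% of all 170820 pairs of these loci. In only 4 near pairs did both loci have a mean of 8 units or more, and it held for 2 of these. It held for 1.77% of all 11628 pairs of loci that tall. Over all pairs of these loci, 0.468% had identical heights in every library. Of the 108 pairs in 1 gene, 7 did (4 of the 36 near pairs and 3 of the 72 others). The tallest was in Arap1, a GTPase-activating protein, where loci of 25 and 33 nt, 532 nt apart, both had 14, 8 and 5 units. Ap2m1, a subunit of the clathrin adaptor AP-2, had 7, 8 and 9 units at loci 2016 nt apart, and Sf3a2, a splicing factor, had 8, 8 and 4 units at loci 2390 nt apart. Equal pairs also lay in Eln (8, 10 and 5 units), in Ehmt1, a histone H3 lysine methyltransferase (8, 6 and 5), in Lig1, a DNA ligase (5, 6 and 5), and in Col1a2, a collagen I chain (4, 3 and 4).

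Among taller neighbours, Mink1, a kinase, had 11, 17 and 13 units at 1 locus and 11, 18 and 13 at the other, 842 nt away. Gabbr1 had 10, 17 and 14 against 10, 15 and 14 units, 405 nt apart. Heights were far apart in Msl2, where a pair of loci differed by 14 units in 1 library. The aligner named in the submitters' processing notes places reads across introns, and the sources used here do not say how the peak caller counted such reads. Exons were not analysed here, so whether these pairs lie on both sides of an intron was not tested.

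**Figure D5:**
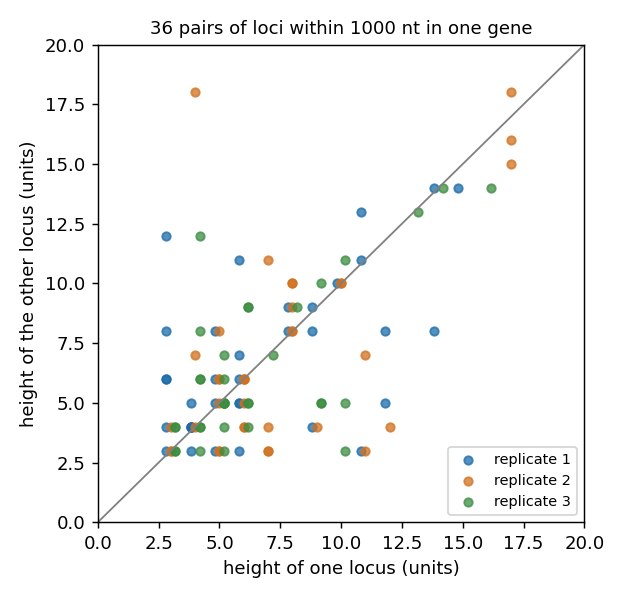
Heights of both loci in 36 pairs of shared loci under 20 units within 1000 nt of each other in 1 gene, in height units, 1 point per pair and replicate (points of replicates 1 and 3 are moved slightly sideways). Points on the grey line have equal heights, and 14 pairs lie within 1 unit of it in all 3 replicates.

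Mast cell identity genes held these loci in 9 of 27 cases (33.3%, against 1.99% of all protein-coding genes, with or without a locus). Of the 15 that had any locus, 9 held these loci, against 14.1% over all protein-coding genes with a locus. This list was among the 18 chosen with earlier results of these data known, and the differences were not tested. Whether its RNAs are abundant in the cells was not tested either. The group gave 17 loci with a median of 7.00 units, against 5.67 units over all 585. Besides the interleukin-3 receptor chains and Gata2, it took in Ndst2 and Slc18a2, which carries histamine into granules (11, 13 and 9 units). Hdc, which makes histamine, had 9, 4 and 7 units at 97.7% of its span, Cd63, a granule membrane protein, had 4, 6 and 7, and Tpsb2, a tryptase, had 3, 7 and 3. Cpa3, the mast cell carboxypeptidase, whose span overlaps 2 other genes there, had 4, 5 and 4. Kit, the stem cell factor receptor, held 9 loci but none of this kind. Among markers of other blood cells, 2 of 15 for macrophages, 0 of 14 for neutrophils and 0 of 14 for lymphocytes had any locus. Over all protein-coding genes, 3082 of 21896 had any locus, and differences from this were not tested on lists this short. None of these markers held a shared locus under 20 units, and of 15 erythroid and megakaryocytic markers Itga2b alone did (4, 3 and 3 units).

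Cytokine signalling genes split. In the JAK-STAT and SOCS list, 5 of 34 genes (14.7%) held 11 of the loci, with a median of 7.33 units. Besides the receptor chains, the genes were Socs4, an inhibitor of cytokine signalling (9, 11 and 9 units), Pim1 (11, 7 and 10, and 13, 3 and 5 units, in the overlap with Gm26885) and Il4ra, the interleukin-4 receptor alpha chain (7, 9 and 6, and 3, 7 and 4 units). Socs1 and Socs3 had 5 and 2 loci, none of this kind. Of 34 genes of FcεRI and Kit signalling, 18 had a locus in some library and 0 had one shared by all under 20 units, against 14.1% over all protein-coding genes with a locus; this difference was not tested. Haematopoietic transcription factors had 4 of 33: Gata2, Ldb1, a cofactor of Gata factors (6, 6 and 7, and 7, 4 and 7 units), Runx1 (6, 5 and 8 units at 98.1% of its span) and Etv6 (7, 4 and 4 units at 0.0418% of its span). Immediate-early and RNA decay genes had 3 of 29, among them Ier3 (6, 7 and 3 units) and Egr3 (5, 5 and 5).

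Of 37 genes listed for chromatin and DNA methylation, 10 held such a locus (27.0%). That is 45.5% of the 22 with any locus, against 14.1% over all protein-coding genes with a locus. Their 16 loci had a median of 4.33 units, against 5.67 units over all 585. Dnmt1, the maintenance DNA methyltransferase, had loci of 11, 8 and 5 and of 5, 5 and 4 units, and Tet3, a relative of Tet2, had 4, 5 and 5 units. Kmt2d, which methylates histone H3, had 3 loci, the tallest with 9, 5 and 9 units. Gse1, also on this list, held 3 loci, the tallest with 10, 8 and 6 units. Kdm5c, Kdm5a, Kmt2a, Kmt2c, Kmt2e and Jarid2 had means of 4.67 units or less. Tet2 itself and Adar, an RNA editing enzyme, held no locus of any kind.

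Translation factors had 6 of 31 genes, with Pabpc1, the poly(A)-binding protein, at 8, 11 and 16 units and Eef1a1 at 8, 6 and 6. Splicing factors had 6 of 43 (23.1% of the 26 with any locus), with Ddx17, a helicase, at 10, 5 and 7 units and Hnrnpd at 7, 8 and 4. Cytoskeleton genes had 5 of 36 (23.8% of the 21 with any locus), led by Macf1 and by Plec, a cytolinker (6, 4 and 8 units). Vesicle and lysosome genes had 4 of 34 (33.3% of the 12 with any locus). Their loci had a median of 8 units, through Arap1, Ap2m1 and Furin, a proprotein convertase (9, 10 and 7 units). Core and linker histones had 7 of 79 genes, or 7 of the 46 with some locus (15.2%, against 14.1% over all protein-coding genes with a locus). Ribosomal proteins had 3 of 83 (3.61%), heat shock proteins and chaperones 3 of 27, with Canx, a chaperone of the endoplasmic reticulum, at 4, 8 and 9 units, and glycolysis 1 of 18, the hexokinase Hk1 (7, 7 and 5 units).

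Imprinted and matrix genes were listed after their loci had been seen, so their counts only describe what is there. Of 44 imprinted genes, 8 held a locus (18.2%), which is 53.3% of the 15 with any locus. Over all protein-coding genes these shares were 1.99% and 14.1%. Plagl1 and Hymai count as separate genes here but share 1 locus. Besides these and Peg3, the genes were Gnas, Igf2, Dlk1, Rtl1 and Kcnq1. Gnas, the stimulatory G protein locus, had 18, 16 and 9 units. Igf2, insulin-like growth factor 2, had 3 loci (6, 8 and 5, then 6, 7 and 6, then 7, 4 and 5 units). Dlk1 had 8, 8 and 4 units, Rtl1 had 7, 4 and 3, and Kcnq1 had 4, 3 and 3. Of 60 genes of the extracellular matrix, 11 held 19 loci with a median of 7.00 units, which is 18.3% of the genes on the list and 42.3% of its 26 genes with any locus, against 1.99% and 14.1% over all protein-coding genes. Fn1, fibronectin, had 10, 16 and 16 units, Col6a2 had 8, 18 and 13, and the 3 loci of Eln had 9, 10 and 6, 8, 10 and 5, and 8, 10 and 5. A locus of 10, 16 and 16 units in Lor, a protein of the skin's cornified layer, was also noticed in this way. Whether these RNAs are abundant in the cells was not tested.

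Non-coding genes and positions outside genes held the rest. Among small structural RNAs, U3 small nucleolar RNA genes had 7, 11 and 8 units (Rnu3b2, inside Tex14) and 7, 7 and 7 (Rnu3a), the 5S ribosomal gene n-R5s136 had 7, 7 and 8, and Snord23, inside Nop53, had 5, 6 and 4. The tallest long non-coding loci were in Gm52861 (11, 17 and 9 units), 2900052L18Rik (8, 11 and 7), 9830166K06Rik (7, 9 and 10), Gm40371 (7, 8 and 11) and the overlap of Xist and Tsix on chromosome X (11, 9 and 6), the RNAs that control X inactivation. Malat1 had 2 loci, neither of this kind. Of the 51 loci outside gene spans, 16 lay within 1000 nt of a span and 28 within 5000 nt. A locus 73 nt from the span of Mrfap1 had 16, 13 and 13 units, and 1 lay 181 nt from that of Bmp7, a growth factor (14, 12 and 14). Farther from genes, a locus on chromosome 4, 234965 nt from Gm32658, had 15, 15 and 13 units.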

How the data were processed

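The authors deposited 1 table with a peak list per replicate: chromosome, start, end and a normalized height, which is a signal that sums to 1 in each library. Trimming and alignment are credited to cutadapt 1.9 and STAR 2.4.0i, with build mm10, in the submitters' processing notes. Per the labels' protocols, peaks came from a valley-seeking algorithm, for which the sources used here give no version or thresholds. Replicates 1, 2 and 3 held 3019, 2800 and 2377 peaks. Heights were turned into units, whole multiples of 1 over 19213, 18270 and 15431 within 0.05 of a step. Whether a unit is 1 read is unknown, as is sequencing depth. Starts were read as 0-based, and positions are printed 1-based. A locus belongs to every RefSeq span (GRCm38.p6) that holds its midpoint. Strand and starts came from 32851 windows, which give strand for 17491 of 21896 protein-coding genes, and 1670 of 1670 overlapping windows of opposite strand matched as reverse complements. Genes named follow a written rule on height, number, width and evenness, with up to 4 per list, plus fixed genes; those named for height-matched pairs, microRNAs and the 2 added lists, and Nup93, Gabbr1 and Lor, were picked with their values in view. The loci and the 18 gene lists were chosen with earlier results of these data known, and 2 lists after their values were seen. Merging was tested on simulated data. Computation used Python 3.11.15, pandas 2.3.3 and scipy 1.17.1. The labels name no separate animals, so SDs may be technical in part.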

Additional observations from a re-analysis of the deposited data

How the results depend on the processing

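The share in the first 5% of longer spans (35.4% to 39.1%), in the last 5% (4.75% to 6.05%) and in both ends (42.4% to 47.2%) kept its direction against other peaks under all 12 alternatives run for each. The share in protein-coding spans did not. Shared loci minus others was -1.37 points with peaks within 100 nt merged (85.7%), -0.119 with a ceiling of 30 units (86.6%), -2.18 with a floor of 5 units (84.5%), -0.0397 with starts read as 1-based (86.7%) and -0.0541 without replicate 2 (86.6%). Over the 3 fits without 1 replicate this share ran from 86.6% to 87.4%. A floor of 5 units left 233 loci, 203 genes, a median width of 39 nt, a median height of 8.67 units and 12.4% of the height. The share of height was 27.0% with merging within 100 nt, 17.9% with a ceiling of 15 units and 26.6% with 30. Leaving out a replicate asks for presence in 2 libraries and gave 814 to 915 loci, 655 to 735 genes, widths of 45 to 48 nt, a median height of 5.00 units and 28.5% to 30.1% of the height. Without replicate 3 the counts, 915 loci and 735 genes, were over 1.5 times the main ones. No paired analysis was possible because the 3 libraries form 1 group, so that no replicate number pairs samples of different groups; the differences within each library stand in the report. Sequencing depth is unknown, and the lowest deposited peak stood at 2, 2 and 3 units in replicates 1, 2 and 3, so weaker sites could not be seen.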

Other observations

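Peaks that end at the 5′ edge of a mature microRNA were also found outside the loci shared by all libraries. Of the 8196 deposited peaks, 12 ended 0 to 5 nt before the first mature base of a hairpin in the RefSeq table. Of these, 6 are the peaks at Mir193b and Mir24-1. The others lay at Mir142 (replicate 2, 4 units), Mir18 (replicate 1, 5 units), Mirlet7i (replicate 1, 5 units), Mir671 (replicate 2, 3 units) and Mir219a-1 (replicates 1 and 2, 4 and 7 units). The gap was 0 nt at Mir142, Mir18, Mirlet7i and Mir671, in 1 library each, and 2 and 0 nt at Mir219a-1. Replicate 3 had its peak near Mir219a-1 (10 units) 43 nt before the mature base. Mir142b and Mir219c lie on the opposite strand at Mir142 and Mir219a-1, and the peaks carry no strand. At other hairpins peaks lay farther off, such as 54 nt before the mature base at Mir3057 and 55 nt at Mir7023. Elsewhere loci overlapped mature bases, such as 22 nt of miR-7654-3p and of miR-7036b-3p, each at a locus found in 2 libraries. Loci found in 1 library overlapped 21 nt of miR-7045-3p and 16 nt of miR-6919-5p. A peak of replicate 3 at Mir671 (5 units) ended 6 nt before the mature base. Peaks ending at a mature edge were looked for after the pattern at Mir193b had been seen.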
